A study of Mus musculus with 24 samples.

Results

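The transcriptome of sorted Sertoli cells was compared between the embryonic stages E12.5 and E13.5 of the mouse, named by days after conception. The comparison used 6 of the 24 libraries of the study, 3 at each stage, chosen by the sex and stage in their labels. The cells came from gonads of XY fetuses of the SOX9-IRES-GFP line, in which green fluorescent protein is made from the transcript of Sox9, and were collected by fluorescence-activated sorting. About 40000 cells went into each RNA preparation, and polyadenylated RNA was amplified as cDNA before sequencing, per the labels' protocols. The labels name no treatment, and stage is the only difference they name between the 2 groups. A batch that differed between the stages could not be told apart from stage. The strain background, the number of copies of the reporter allele and the number of pooled fetuses are not stated. The labels do not say that replicates came from separate litters, so the spread between replicates may be technical in part. The p-values rest on the spread within all 8 groups of 3 libraries of the study, which were fitted together. Where the step is set beside the other sex, the libraries are pre-granulosa cells of XX fetuses of a line with the Tg(Enh8-mCherry) transgene, 3 at each of the same stages.

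Sertoli cells are the supporting cells of the testis. They arise from the bipotential supporting lineage when SRY switches on Sox9, enclose germ cells in cords, secrete anti-Müllerian hormone to remove the female ducts, and send hedgehog, FGF and PDGF signals that recruit the other lineages of the testis. Between the 2 stages examined, cords become well defined, fetal Leydig cells begin to make steroids and germ cells of the testis approach mitotic arrest. Sertoli cells keep dividing through fetal life, and they also build a basement membrane and the junctions that later seal the cord.

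The 6 libraries held between 19316255 and 30696512 counts, and between 17333 and 17892 genes had at least 1 count in each. The level of each gene is given as CPM, the count as a share of the library's scaled total. In these libraries 3 counts, taken as the detection limit for levels and fold changes, stood for 0.107 to 0.166 CPM. Ddx3y, a Y-linked gene, was at 144.3 to 173.1 CPM, and Xist was at no more than 0.14 CPM. The Spearman correlation of log2(CPM + 1) was 0.964 ± 0.0011 (SD, 6 pairs) within a stage and 0.9595 ± 0.00076 (9 pairs) between stages, and the lowest value within a stage, 0.963, was above the highest between stages, 0.961. The first principal component held 54.5% of the variance and separated the stages. XY E12.5 replicate 1 stood apart on the second component (15.6%), at 38.5 where the other libraries lay between -23.1 and 4.88. Mitochondrially encoded transcripts made up 1.30 to 1.59% of counts at E12.5 and 1.78 to 1.88% at E13.5, and the part of this difference in the results was not tested.

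Of 16190 genes tested, 2694 (16.6%) changed between the stages at an adjusted p under 0.05, with 1298 (8.02%) higher and 1396 (8.62%) lower at E13.5. In 2592 of them the 3 libraries of one stage did not overlap the 3 of the other. Genes not called, such as Sox9 and Amh, could also lack overlap, so this count is no support apart from the test. Of the 2694 genes called, 937 had an absolute log2 change of at least 1, 482 upward and 455 downward. The median log2 change of all genes tested was -0.01. Without XY E12.5 replicate 1, 2367 genes were called. Leaving out XY E12.5 replicate 2, XY E13.5 replicate 2 or XY E13.5 replicate 3 gave 1503, 1626 and 1606 calls.

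**Figure D1:**
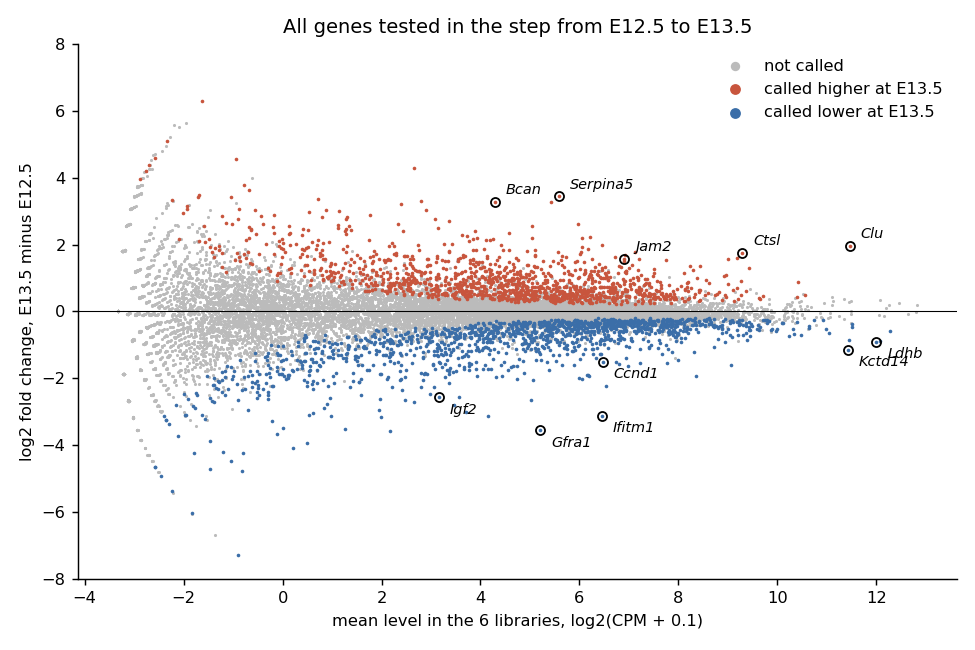
Each point is 1 of 16190 genes tested, with its mean level in the 6 libraries on the x axis, as log2(CPM + 0.1), and its log2 change from E12.5 to E13.5 on the y axis. Red points were called higher and blue points lower at E13.5, 2 genes lie beyond the axis, and Serpina5, Bcan, Gfra1 and Ifitm1 stand out for the size of their change at levels well above the detection limit.

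Serpina5, Gfra1 and Ifitm1 were among the genes with the largest changes. Serpina5 encodes protein C inhibitor, a secreted serine protease inhibitor (chr12:104101113-104106137 in GRCm38, plus strand, protein-coding). Its level was 10.1, 6.12 and 7.86 CPM in the 3 libraries at E12.5 against 75.8, 93.6 and 93.0 CPM at E13.5. The groups were far apart, with a 10.9-fold higher mean at E13.5 (log2 change 3.45, SE 0.28, adjusted p 7.39e-07). The 250 bases before its RefSeq start (chr12:104100863-104101112) are shown because Serpina5 had the second largest increase of the set described here and a RefSeq window; capitals mark overlapping matches to ACAATG and AACAAT, core motifs of SOX factors. Neither strand of the window held AGATAA, bound by GATA factors, or AAGGTCA, bound by SF-1, or the CCAAT box.
Serpina5: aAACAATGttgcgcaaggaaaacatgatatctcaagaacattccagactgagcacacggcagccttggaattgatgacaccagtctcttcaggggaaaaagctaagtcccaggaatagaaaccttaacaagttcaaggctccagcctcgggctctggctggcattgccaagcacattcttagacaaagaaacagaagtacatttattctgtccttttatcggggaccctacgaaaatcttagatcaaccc
Of all 32851 RefSeq promoter windows of this length, 10.7% held the former motif and 9.42% the latter on either strand. Among the 12 most increased genes, 7 had a window, of which 1 held the former and 2 the latter. A match describes the letters and does not show a bound site.

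Gfra1, the co-receptor through which GDNF signals to RET, moved the other way (chr19:58235604-58455909, minus strand). It was at 62.7, 75 and 66.3 CPM at E12.5 against 5.70, 5.74 and 5.86 CPM at E13.5. The 3 later libraries were nearly equal, and the mean was 11.8-fold lower at E13.5 (log2 change -3.56, SE 0.44, adjusted p 1.42e-05). Ifitm1, an interferon-inducible membrane protein known as fragilis 2 and widely expressed in early embryos (chr7:140967221-140969825, plus strand), was at 147, 162 and 164 CPM at E12.5 against 17.6, 18.7 and 17.7 CPM at E13.5. The mean was 8.77-fold lower at E13.5 (log2 change -3.13, SE 0.21, adjusted p 7.91e-09). Among the 6 IFITM genes tested, edgeR called no other with all libraries fitted. Ifitm2 had a log2 change of -0.26 (adjusted p 0.266) and Ifitm3 one of -1.17 (adjusted p 0.133). Both were called when the 12 XY libraries were fitted alone, Ifitm2 also with only the 6, and Ifitm3 also by DESeq2 and by limma on log2(TPM + 0.1).

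The 12 genes with the largest increase, among those called with at least 10 CPM at E13.5 and with no overlap between the stages, were a mixed set of secreted, membrane and lipid genes. Shisa8, an AMPA-receptor auxiliary protein, was at 0.327, 0.604 and 0.868 CPM and then at 6.52, 10.9 and 18.2 CPM, and its E13.5 libraries were spread widely (log2 change 4.30, SE 0.54, adjusted p 1.31e-05). Bcan encodes brevican, a hyaluronan-binding proteoglycan of the lectican family, and was at 4.11, 3.15 and 3.61 CPM at E12.5 against 34.6, 34.3 and 36.8 CPM at E13.5. The replicates of each stage lay close together (log2 change 3.28, SE 0.25, adjusted p 1.88e-08). Foxq1, a forkhead factor, was at 0.794, 1.64 and 2.38 CPM and then 9.29, 12.4 and 17.5 CPM (log2 change 3.02, SE 0.37, adjusted p 7.88e-06). Serpina3a, a clade A serpin like Serpina5, was at 21.9, 15.2 and 15.3 CPM at E12.5 and close to 107 CPM in every E13.5 library (log2 change 2.61, SE 0.27, adjusted p 2.14e-06). Elovl3, which elongates saturated very long chain fatty acids, rose to 16.0, 19.6 and 17.2 CPM from 3.36, 2.37 and 2.28 CPM. The others were Nalf1, Defb36, Elapor1, Sptb, Bace2 and Galnt18, with log2 changes of 3.29, 2.78, 2.55, 2.49, 2.41 and 2.35. The call of Sptb was lost by limma without a TPM filter. Just outside the set were Plekhh3 (2.29) and Frzb (2.24), the latter no longer called without XY E12.5 replicate 1 or 2.

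The 12 genes with the largest decrease included receptors, a growth factor and signalling enzymes. Igf2, the fetal growth factor expressed from the paternal allele, was at 12.2, 18 and 15.2 CPM at E12.5 against 3.26, 1.95 and 2.54 CPM at E13.5 (log2 change -2.57, SE 0.19, adjusted p 9.76e-09). Ednrb, the endothelin receptor B, fell from 13.49, 25.2 and 21.8 CPM to 3.59, 3.15 and 3.54 CPM, with XY E12.5 replicate 1 the lowest of its stage (log2 change -2.56, SE 0.39, adjusted p 0.000135). Ngef encodes ephexin-1, a guanine nucleotide exchange factor, and fell from 56.3, 60.9 and 50.7 CPM to 8.96, 9.44 and 8.47 CPM (log2 change -2.64, SE 0.19, adjusted p 7.91e-09). Paqr5, a membrane progestin receptor, was at 28.9, 34.0 and 32.8 CPM and then at 3.37, 3.94 and 3.54 CPM (log2 change -3.14, SE 0.28, adjusted p 2.18e-07). Pdgfra, the receptor for PDGF-A and a marker of interstitial cells, fell from 12.3, 13.4 and 15.3 CPM to 2.76, 2.43 and 3.25 CPM (log2 change -2.27, SE 0.32, adjusted p 4.98e-05). The summed level of 11 interstitial markers, Pdgfra among them, was 49.0 to 55.8 CPM at E12.5 and 25.5 to 28.8 CPM at E13.5. None of them was at 0. Col3a1 was the most abundant, and only Col3a1 and Pdgfra were called, both lower. By log2 change, 7 of the 11 were above 0 and 4 below, with a median of 0.47. The part of interstitial transcripts in the decrease of Pdgfra was not tested. Syt6, Atg9b, Cpm and Adamtsl3 fell with log2 changes of -3.01, -2.81, -2.46 and -2.27. Gjb1, connexin 32, had a log2 change of -2.70 and was called with all 6 libraries (adjusted p 0.0367) but not when any 1 of the 6 was left out. Smoc2 (-2.24) and Lhfpl2 (-2.14) were just outside the set.

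**Figure D2:**
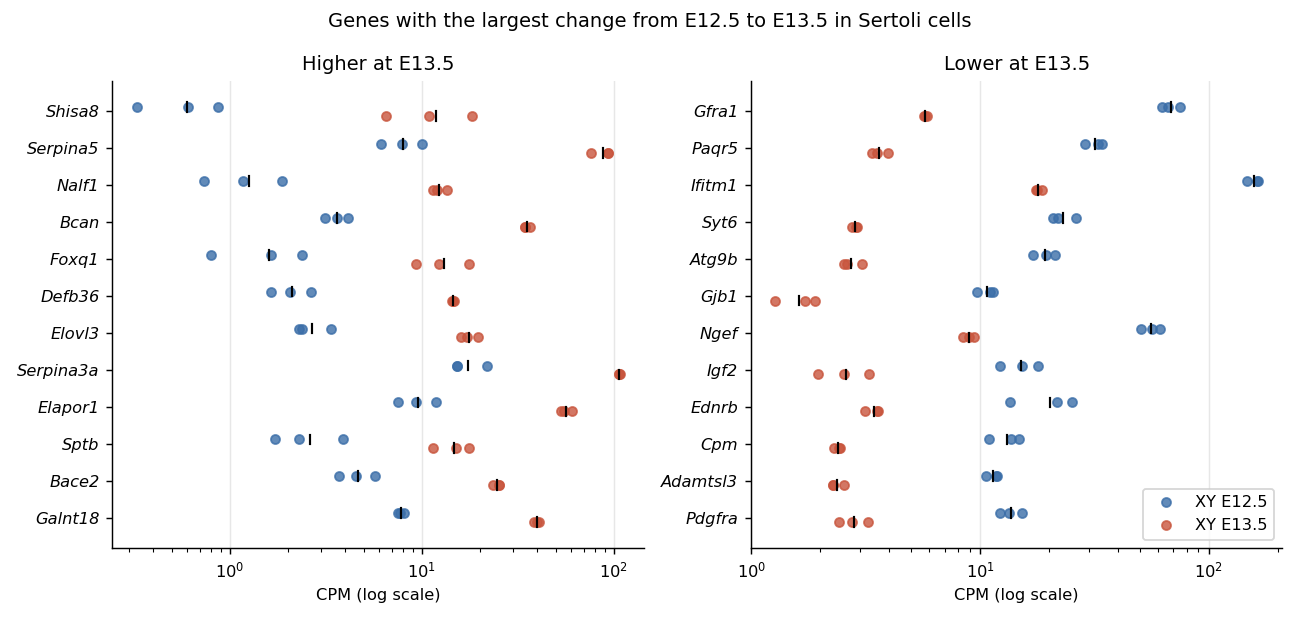
Level of the 12 genes with the largest increase (left) and the 12 with the largest decrease (right) in each library, in CPM on a log scale; each point is 1 library, blue for XY E12.5 and red for XY E13.5, and the black bar is the mean of 3. The stages do not overlap for any gene, which the choice of genes required, and Shisa8 has the widest spread at E13.5.

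The genes with the largest change of level, among those called and without overlap between the stages, are compared here in TPM, a share of transcripts that accounts for gene length. Amh and Ptgds gained 956 and 622 TPM but were not called. Clu encodes clusterin, a secreted chaperone made in large amounts by Sertoli cells, and gained 2835 TPM on average, from 1098, 898 and 882 TPM at E12.5 to 3939, 3613 and 3832 TPM at E13.5. The increase was 3.91-fold in CPM (log2 change 1.97, SE 0.22, adjusted p 3.48e-06). Ctsl, the lysosomal and secreted protease cathepsin L, rose from 262, 318 and 376 TPM to 1268, 1003 and 988 TPM (log2 change 1.76, SE 0.12, adjusted p 7.91e-09). Defb19, an epididymal and testicular beta-defensin, gained 1679.7 TPM (log2 change 1.10, SE 0.20, adjusted p 0.00066). Kazald1 and Cited1 gained 567 and 469.8 TPM. Chchd10, a mitochondrial protein, gained 514 TPM (adjusted p 0.028), and this call was lost without XY E12.5 replicate 1 or 2 or XY E13.5 replicate 1 or 2.

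Among the genes called, the largest decrease in TPM was in Ldhb, the heart-type subunit of lactate dehydrogenase, which was at 5147, 7036 and 6799 TPM at E12.5 and 3150.4, 3715 and 3442 TPM at E13.5 (log2 change -0.90, SE 0.15, adjusted p 0.000231). Kctd14, a BTB-domain protein, was at 3414, 3365 and 3245 TPM at E12.5 and 1549.9, 1522 and 1576 TPM at E13.5, with little spread in either group (log2 change -1.16, SE 0.08, adjusted p 9.76e-09). Eno1, the glycolytic enolase, fell by 1136 TPM, and Hmgn2, a nucleosome-binding protein, fell by 679 TPM. Hspa5, the chaperone BiP of the endoplasmic reticulum, fell by 1309 TPM (adjusted p 0.0118), a call lost without XY E13.5 replicate 1. Col18a1, the basement membrane collagen that yields endostatin, fell by 733 TPM (adjusted p 0.0214), and its call was lost without XY E12.5 replicate 1 or 2 or XY E13.5 replicate 1 or 2.

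The labelled cell type was checked on 25 Sertoli genes. Amh, the hormone that removes the Müllerian ducts, was at 3826, 3859 and 3838 CPM at E12.5 against 5117, 4302 and 5046 CPM at E13.5, and its log2 change of 0.33 (SE 0.37) did not pass the test (adjusted p 0.613). Sox9, whose transcript carries the reporter used for the sort, was at 2218, 1983 and 1852 CPM and 1532, 1472 and 1559 CPM (adjusted p 0.368). Dhh, the hedgehog ligand of Sertoli cells, was at 1597, 1461 and 1445 CPM and 1330, 1451 and 1449.8 CPM. These defining genes were abundant at both stages. Dmrt1, Gata4, Sox8, Wt1, Ptgds, Cyp26b1 and Cst9 did not pass the test either. When only the 6 libraries were fitted, Sox9, Amh, Sox8, Wt1, Ptgds and Cyp26b1 did pass, with adjusted p of 0.0066, 0.0139, 0.0121, 0.0184, 0.000614 and 0.000736. Of the 25 genes, 9 rose and 3 fell, with a median log2 change of 0.29.

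Among the Sertoli genes that rose, Hsd17b1 and Hsd17b3 encode 17-beta-hydroxysteroid dehydrogenases, the second of which turns androstenedione into testosterone. Hsd17b3 was at 169.9, 174 and 176 CPM at E12.5 against 378, 372 and 393 CPM at E13.5 (log2 change 1.14, SE 0.21, adjusted p 0.000959). Hsd17b1 was at 32.1, 32.5 and 34.8 CPM and then 73.2, 79.1 and 75.8 CPM (log2 change 1.2, SE 0.15, adjusted p 9.77e-06). Fshr, the receptor for follicle-stimulating hormone, was low at both stages, at 3.64, 2.63 and 2.97 CPM and 8.68, 9.92 and 8.83 CPM (log2 change 1.57, SE 0.21, adjusted p 6.51e-05). Aard rose from 119, 106 and 124 CPM to 182, 242 and 302 CPM (log2 change 1.06, SE 0.25, adjusted p 0.00565). Etd rose by a log2 change of 1.83, a call lost by limma on log2(TPM + 0.1), and Clu, given above, is a member of the list. Inha and Inhbb, the subunits of inhibin B, had log2 changes of 0.31 and 0.45 (adjusted p 0.0379 and 0.0296); leaving out XY E12.5 replicate 2, XY E13.5 replicate 2 or XY E13.5 replicate 3 ended both calls, and so did XY E12.5 replicate 3 for Inha and XY E12.5 replicate 1 for Inhbb. With each of XY E12.5 replicate 2, XY E13.5 replicate 2 and XY E13.5 replicate 3 left out, 6 genes of the list rose instead of 9.

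Fgf9, Nr5a1 and Nr0b1 were the Sertoli genes that fell. Fgf9, which opposes Wnt4 when the testis forms, was at 53.8, 65.5 and 61.1 CPM at E12.5 against 21.2, 20.4 and 21 CPM at E13.5, without overlap (log2 change -1.53, SE 0.15, adjusted p 7.98e-07). Nr5a1, the nuclear receptor SF-1 of the gonad and adrenal, was at 696, 652 and 620.3 CPM and then 414, 382 and 421 CPM (log2 change -0.69, SE 0.17, adjusted p 0.00753). Nr0b1, the DAX1 antagonist of SF-1, had a log2 change of -0.75 (SE 0.13, adjusted p 0.00052). These 3 remained called when any 1 library was left out.

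Of 12 pre-granulosa genes tested, 6 fell and none rose, with a median log2 change of -1.30. Runx1, a granulosa-lineage transcription factor, was at 13.1, 15.6 and 18.2 CPM at E12.5 against 5.31, 4.26 and 4.29 CPM at E13.5 (log2 change -1.77, SE 0.14, adjusted p 5.29e-08). Wnt4, the ovary-promoting WNT ligand, was at 5.65, 4.62 and 5.44 CPM and then 0.885, 2.11 and 2.04 CPM (log2 change -1.59, SE 0.24, adjusted p 8.56e-05). Msx1 fell by 1.09 on the log2 scale from a level of 2.80, 1.38 and 1.96 CPM. Lgr5, the R-spondin receptor, was far more abundant, at 264, 269.7 and 255 CPM and 129, 119 and 118 CPM, and its call (adjusted p 0.0204) was lost without XY E12.5 replicate 2 or any 1 of the XY E13.5 libraries. Bmp2 was called with all libraries (adjusted p 0.00928) but not without XY E12.5 replicate 2 or 3, and Irx5 (adjusted p 0.0452) lost its call without any 1 of the 6. Irx5 lay near the limit of 3 counts, at 0.187, 0.216 and 0.183 CPM at E12.5 and 0, 0.040 and 0 CPM at E13.5. With that limit as floor it was at least 1.18-fold lower. The number of the list that fell was 3 without XY E12.5 replicate 2. In XX E13.5 libraries, Runx1 and Wnt4 were at 66.5 ± 5.03 and 91.8 ± 7.70 CPM (SD, n = 3). In sorted bulk samples, fewer cells that carry a transcript and less of it per cell cannot be told apart.

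Of 9 GDNF family ligands and receptors tested, 4 fell and none rose, and those that fell were the co-receptors Gfra1 to Gfra4. Gfra3, the receptor for artemin, was at 6.91, 10.5 and 8.59 CPM at E12.5 against 1.66, 2.55 and 2.39 CPM at E13.5 (log2 change -1.96, SE 0.26, adjusted p 2.66e-05). Gfra2, the receptor for neurturin, was at 2.47, 2.37 and 2.19 CPM and then 0.829, 0.398 and 0.858 CPM (log2 change -1.76, SE 0.31, adjusted p 0.00052). Gfra4 was below 1 CPM in every library (adjusted p 0.0145), and its call was lost without XY E12.5 replicate 2 or XY E13.5 replicate 1 or 3. Gdnf itself, which Sertoli cells supply to germ cells, was at 33.5, 46.0 and 43.7 CPM and 37.1, 27.3 and 31.3 CPM, and the libraries overlapped (adjusted p 0.394). Ret, the signalling receptor, stayed at or under 0.572 CPM, with a log2 change of 1.41 (adjusted p 0.0991).

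Among 18 secreted signals from Sertoli cells to their neighbours, 3 (16.7%) rose and 3 (16.7%) fell. Of all genes tested, 8.02% rose and 8.62% fell. Kitl, the KIT ligand that germ cells need, was at 859, 796 and 762 CPM at E12.5 against 512, 511 and 508 CPM at E13.5 (log2 change -0.66, SE 0.11, adjusted p 0.000272). Fgf9 and Igf2, given above, also fell. Igf1 was called in the opposite direction to Igf2, at 1.12, 1.47 and 2.15 CPM and then 4.53, 5.10 and 3.79 CPM (log2 change 1.5, SE 0.29, adjusted p 0.00112). The count of 3 that rose was 1 without XY E12.5 replicate 1 or 2 or XY E13.5 replicate 2 or 3, whereas the 3 decreases were kept in number under each omission.

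Of 31 genes of the AMH, activin, BMP and TGF-beta families, 11 rose and 3 fell, with a median log2 change of 0.34. The ID genes, which encode inhibitors of basic helix-loop-helix factors and respond to BMP signalling, had higher means at E13.5. Id1 was at 21.2, 61.6 and 72.9 CPM at E12.5 against 202, 134 and 144 CPM at E13.5, with XY E12.5 replicate 1 the lowest and XY E13.5 replicate 1 the highest (log2 change 1.62, SE 0.34, adjusted p 0.00264). Id3 showed the same 2 libraries at its extremes, with 112, 211 and 262 CPM and 613, 428 and 452 CPM (log2 change 1.35, SE 0.24, adjusted p 0.000701). Id2 and Id4 had log2 changes of 0.80 and 1.45 (adjusted p 0.0268 and 0.0232); the call of Id2 was lost without XY E12.5 replicate 1 or 2 or XY E13.5 replicate 1 or 2, and that of Id4 without XY E12.5 replicate 1 or 3 or XY E13.5 replicate 2 or 3. Smad6, an inhibitory SMAD induced by BMP, was at 0.654, 0.906 and 0.777 CPM and then 4.37, 4.10 and 4.22 CPM (log2 change 2.43, SE 0.31, adjusted p 1.72e-05). The ligand Bmp7 fell from 42.2, 43.5 and 43.4 CPM to 11.4, 8.85 and 11.2 CPM (log2 change -2.04, SE 0.18, adjusted p 1.92e-07), and Tgfbr3, the co-receptor betaglycan, fell by 1.34 on the log2 scale. Tgfb3 had a log2 change of 0.93 (adjusted p 0.0101), lost without XY E12.5 replicate 3, and Amhr2, the AMH receptor, one of 0.48 (adjusted p 0.0329), lost without any 1 library but XY E12.5 replicate 1. Without XY E12.5 replicate 1, 2 or 3, 7, 6 and 6 genes of the list rose, and 5 without XY E13.5 replicate 2 or 3.

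Of 17 Notch pathway genes, 4 (23.5%) fell and none rose, where 8.62% of all genes tested fell and 8.02% rose. By log2 change, 8 of the 17 were above 0 and 9 below. Hey1, a direct target of Notch, was at 15.1, 15.1 and 15.9 CPM at E12.5 against 3.87, 4.22 and 3.82 CPM at E13.5, with almost no spread between replicates (log2 change -1.95, SE 0.11, adjusted p 4.2e-10). Dll1, a Notch ligand, was at 4.20, 7.81 and 8.04 CPM and then below 1 CPM in all 3 libraries (log2 change -2.96, SE 0.55, adjusted p 0.000852). Without XY E13.5 replicate 2, 2 genes of the list fell, and without XY E12.5 replicate 3 or XY E13.5 replicate 1, 1 and 2 rose. WNT feedback genes were split, with 4 (21.1%) higher and 6 (31.6%) lower of 19. Axin2, a standard readout of beta-catenin, was low and rose from 2.43, 2.20 and 1.55 CPM to 3.59, 4.38 and 4.29 CPM (log2 change 0.99, SE 0.24, adjusted p 0.00596). Rnf43, which removes WNT receptors from the surface, had a log2 change of 1.29 (adjusted p 0.0132), a call not made by limma on TPM, while Lgr4 fell by 0.68 on the log2 scale (adjusted p 0.0122), a call lost without XY E12.5 replicate 1 or XY E13.5 replicate 1. The number that rose was 2 without XY E12.5 replicate 1 or 2 or XY E13.5 replicate 2, and the number that fell was 3 without XY E13.5 replicate 1. In FGF receptor and feedback genes 0 of 16 rose and 2 fell, and in hedgehog genes 1 of 14 rose and 2 fell. The number that fell was 1 in the FGF list without XY E12.5 replicate 2 or 3 or XY E13.5 replicate 2 or 3, and 1 in the hedgehog list without XY E12.5 replicate 2 or XY E13.5 replicate 1 or 2.

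Retinoic acid, which drives germ cells into meiosis in the ovary, is broken down in the fetal testis by the Sertoli cell enzyme CYP26B1. Cyp26b1 was at 274, 309 and 286 CPM at E12.5 against 174, 139.6 and 177 CPM at E13.5, and although the stages did not overlap the log2 change of -0.82 (SE 0.31) did not pass (adjusted p 0.0731). It passed when only the 6 libraries, or only the 12 XY libraries, were fitted. Dhrs3, which returns retinaldehyde to retinol, was at 23.3, 19.9 and 19.4 CPM and then 5.75, 8.41 and 6.86 CPM (log2 change -1.57, SE 0.15, adjusted p 7.39e-07). Cyp26a1, a second enzyme that breaks down retinoic acid, was at 1.03, 0.647 and 1.05 CPM and then below the level of 3 counts in each library, so that it was at least 5.48-fold lower (adjusted p 0.000187), the floor being 3 counts per library. Of 18 retinoid genes tested, 3 (16.7%) rose and 2 (11.1%) fell, against 8.02% and 8.62% of all genes tested. The number that rose was 1 without XY E12.5 replicate 1 or 2 or XY E13.5 replicate 1 or 3.

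Cell junction genes included 6 of 32 that rose (18.8%) and 2 that fell (6.25%), against 8.02% and 8.62% of all genes tested. By log2 change, 14 of the 32 were above 0 and 18 below, with a median of -0.08. Jam2, a junctional adhesion molecule of the blood-testis barrier, was at 63.2, 59.2 and 57.9 CPM at E12.5 against 179, 179.6 and 179 CPM at E13.5, and the replicates of a stage were nearly equal (log2 change 1.58, SE 0.20, adjusted p 1.88e-05). F11r, which encodes JAM-A, was at 303, 281 and 261 CPM and then 479.6, 519 and 523 CPM (log2 change 0.85, SE 0.10, adjusted p 4.17e-06). Cgn, the tight junction plaque protein cingulin, and Jup, plakoglobin, had log2 changes of 0.65 and 0.53 (adjusted p 0.00287 and 0.00304), and Marveld2, tricellulin, one of 0.95. Ctnna1, the alpha-catenin of adherens junctions, fell from 744, 687 and 654 CPM to 438, 502 and 478 CPM (log2 change -0.56, SE 0.11, adjusted p 0.0018). Cldn11, a claudin of Sertoli tight junctions, had a log2 change of 0.62 (adjusted p 0.0266), a call lost without XY E12.5 replicate 1 or 2 or XY E13.5 replicate 1. The number of 2 that fell was 1 without any 1 library except XY E12.5 replicate 1.

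Of 12 genes of cartilage-type matrix, several of which depend on SOX9 in cartilage, 5 fell and 1 rose, with a median log2 change of -1.03. Col11a1 was at 15.1, 23.6 and 18.7 CPM at E12.5 against 6.25, 5.70 and 6.04 CPM at E13.5 (log2 change -1.68, SE 0.29, adjusted p 0.000476). Acan, which encodes aggrecan, fell by 1.05 on the log2 scale (adjusted p 0.0043). Col2a1, the main collagen of cartilage, was at 504, 574 and 483 CPM and then 145, 115 and 151 CPM (adjusted p 0.00936), a call lost without XY E13.5 replicate 2. Cnmd, chondromodulin, rose from 43.5, 25.8 and 26.5 CPM to 80.1, 96.2 and 90.5 CPM (log2 change 1.48, SE 0.20, adjusted p 3.2e-05). Over 42 collagen chains 10 fell and none rose, and 4 fell without XY E13.5 replicate 2. With XY E12.5 replicate 1 left out 6 chains fell. Of the cartilage-type genes 2 fell without XY E13.5 replicate 2. Col3a1, also a marker of interstitial cells, was among the chains that fell, except by limma on TPM. It is the most abundant member of the interstitial sum given above, so the fall of that sum is not separate evidence. In the basement membrane list 2 of 25 (8%) rose and 5 (20%) fell, against 8.02% and 8.62% of all genes tested. Lama1, the laminin alpha chain of early basement membranes, was at 80.8, 65.7 and 50.9 CPM and 124, 121 and 131 CPM (log2 change 0.93, SE 0.16, adjusted p 0.000424), and 2 genes of the list fell without XY E13.5 replicate 2. With XY E12.5 replicate 1 or 2 left out 3 fell, while 1 rose without XY E13.5 replicate 3.

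**Figure D3:**
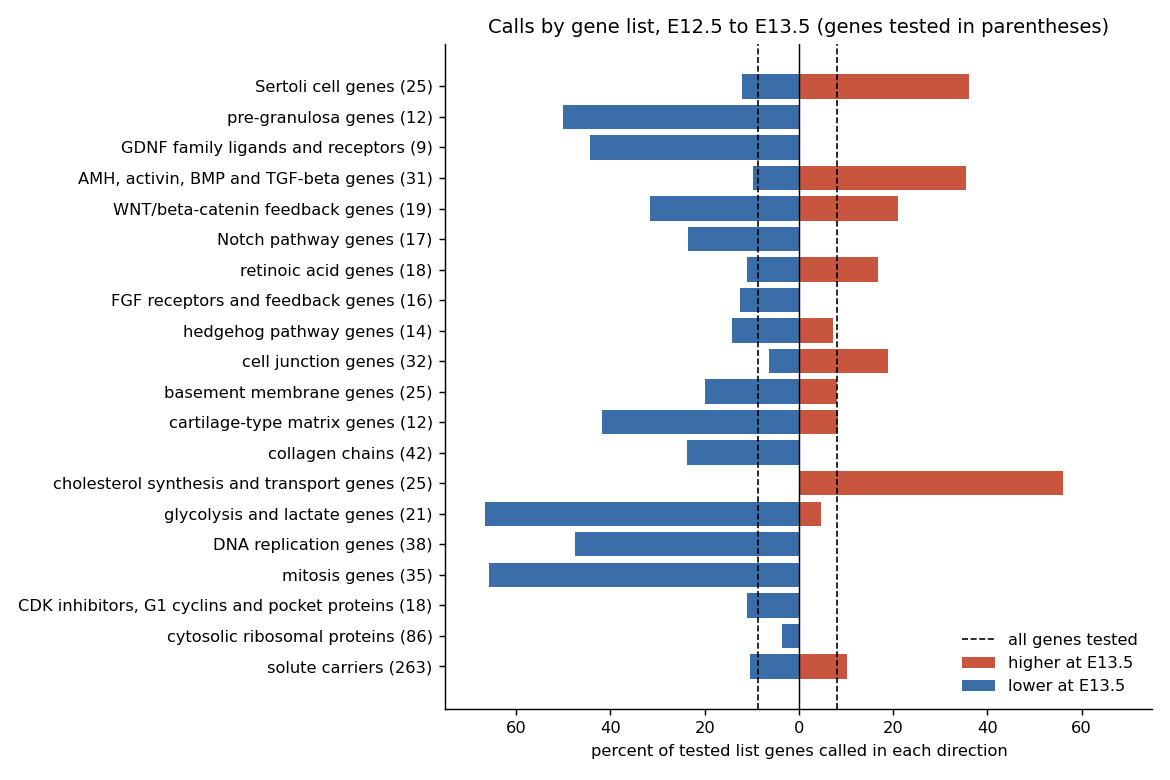
Percent of the tested genes of each list that were called higher (red, to the right) or lower (blue, to the left) at E13.5, with the number tested in parentheses; dashed lines mark 8.02% higher and 8.62% lower over all genes. Cholesterol genes reach 56.0% higher and 0 lower, and glycolysis and mitosis genes reach 66.7 and 65.7% lower. The mitosis count depends on single libraries as given in the text. The lists were chosen with earlier results of these data known.

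The number of cell division genes that fell rested on single libraries. Of 35 mitosis genes, 23 fell and none rose, and all 35 had a log2 change below 0 (median -0.90). Of 38 DNA replication genes, 18 fell and none rose (median -0.37). The summed level of the mitosis genes was 2410, 4512 and 4333 CPM in the 3 E12.5 libraries and 2533, 1879 and 1650 CPM in the 3 E13.5 libraries. XY E12.5 replicate 1 thus lay within the range of the E13.5 libraries, and the groups overlapped. Without XY E12.5 replicate 1, 31 mitosis genes and 27 replication genes fell. Without XY E12.5 replicate 2 or 3, 2 and 3 mitosis genes and 5 and 7 replication genes fell, and without XY E13.5 replicate 2 or 3 the counts were 3 and 2 mitosis genes and 7 and 5 replication genes. The same XY E12.5 replicate 1 had a summed level of immediate-early and heat-shock genes, which respond to tissue dissociation, of 5345 CPM where the other 2 E12.5 libraries had 8944 and 9541 CPM and the E13.5 libraries 6257 to 7631 CPM, and the part of this difference was not tested.

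Ccnb1, cyclin B1, was at 121, 276 and 265 CPM at E12.5 against 92.8, 74.6 and 61.9 CPM at E13.5, without overlap (log2 change -1.53, SE 0.32, adjusted p 0.00259). It remained called when any 1 of the 6 libraries was left out. Top2a, the topoisomerase that untangles chromosomes in mitosis, was at 152, 377 and 378 CPM and 200.1, 122 and 95.4 CPM, and the groups overlapped (adjusted p 0.0307). Its call, like those of Ube2c, Bub1 and Plk1, was lost without XY E12.5 replicate 2 or 3 or XY E13.5 replicate 2 or 3. Rrm2, the subunit of ribonucleotide reductase made in S phase, was at 192, 270.2 and 238 CPM and then 135, 112 and 99.6 CPM (log2 change -1.02, SE 0.23, adjusted p 0.00434). Mki67, the Ki-67 antigen, and Pcna, the replication clamp, did not pass (adjusted p 0.166 and 0.137), although Pcna did without XY E12.5 replicate 1. Ccnd1, the G1 cyclin D1, fell with little spread between replicates, from 125, 139 and 130.3 CPM to 48.7, 47.1 and 42.3 CPM (log2 change -1.51, SE 0.16, adjusted p 1.17e-06). No inhibitor of cyclin-dependent kinases was called higher. Cdkn1a was called lower (log2 change -0.73, adjusted p 0.00902), a call lost without XY E13.5 replicate 3. Cdkn1b was at 13.1, 13.6 and 12.7 CPM and 14.5, 14.5 and 14.8 CPM, and Cdkn1c ranged from 51.0 to 90.7 CPM at E12.5 and from 34.3 to 136 CPM at E13.5.

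The windows of 250 bases before the starts of Top2a (chr11:99024190-99024439, minus strand) and Bub1 (chr2:127831860-127832109, minus strand) are shown as examples of a promoter feature common in this list. Capitals mark CCAAT on either strand, the box bound by NF-Y, and TTTGAA on either strand, the core of the cell cycle homology region.
Top2a: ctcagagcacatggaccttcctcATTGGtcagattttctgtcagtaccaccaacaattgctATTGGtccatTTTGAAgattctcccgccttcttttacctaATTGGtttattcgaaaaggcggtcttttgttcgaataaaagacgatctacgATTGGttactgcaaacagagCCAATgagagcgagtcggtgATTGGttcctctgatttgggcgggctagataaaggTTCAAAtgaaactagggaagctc
Bub1: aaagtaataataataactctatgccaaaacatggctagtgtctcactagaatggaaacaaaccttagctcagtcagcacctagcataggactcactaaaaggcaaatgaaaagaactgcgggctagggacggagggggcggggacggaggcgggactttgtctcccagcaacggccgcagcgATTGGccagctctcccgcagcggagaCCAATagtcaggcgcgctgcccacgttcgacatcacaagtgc
CCAAT was found in 26 of 32 windows of the mitosis list (81.2%) and in 22 of 36 of the replication list (61.1%), against 33.8% of all RefSeq windows. TTTGAA was in 43.8% of the mitosis windows and 16.0% of all. The E2F motif TTTNNCGC was in 25% of the replication windows and 4.28% of all. The lists were chosen by function with earlier results of these data known. TTTGAA and TTTNNCGC were chosen after the results were known. These shares therefore describe the genes and support no statement on the step.

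Of 21 genes for glycolysis and lactate handling, 14 fell and 1 rose, and the median log2 change was -0.54. Their summed level was 16480 to 18284 CPM at E12.5 and 11008 to 11717 CPM at E13.5, without overlap, and Ldhb was the most abundant member. Between 10 and 12 genes fell when any 1 library was left out. Ldha, the muscle-type lactate dehydrogenase subunit (chr7:46841475-46855627, plus strand), was at 616, 634 and 685 CPM at E12.5 against 368, 334 and 327 CPM at E13.5 (log2 change -0.91, SE 0.10, adjusted p 3.34e-06). Pgk1, phosphoglycerate kinase, was at 370.2, 341 and 355 CPM and then 203, 214 and 199 CPM (log2 change -0.79, SE 0.09, adjusted p 4.17e-06). Hk1 and Pkm, hexokinase 1 and pyruvate kinase, had log2 changes of -0.77 and -0.54 (adjusted p 0.00306 and 0.000415). Pdk1, the kinase that holds pyruvate back from the mitochondrion, fell from 162, 138 and 137 CPM to 72.8, 82.6 and 87.3 CPM (log2 change -0.85, SE 0.15, adjusted p 0.000674). The lactate transporters moved in opposite directions. Slc16a3, which encodes the exporter MCT4, was the gene that rose, from 100.4, 58.8 and 63.6 CPM to 178, 147 and 189 CPM (log2 change 1.21, SE 0.22, adjusted p 0.000783). Slc16a1, which encodes MCT1, was at 50.4, 82.9 and 87.7 CPM and then 36.4, 34.6 and 31.4 CPM (log2 change -1.11, SE 0.18, adjusted p 0.000164). Gapdh was at 211, 244 and 244 CPM and 198, 160.2 and 172 CPM and did not pass (adjusted p 0.0581), although it did with DESeq2.

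The windows before one RefSeq start of Ldha (chr7:46845554-46845803, plus strand) and before that of Pgk1 (chrX:106186850-106187099, plus strand) are shown because both genes are textbook targets of hypoxia-inducible factor. Capitals mark ACGTG, the core of the hypoxia response element, on either strand; in CACGTG the matches of both strands overlap.
Ldha: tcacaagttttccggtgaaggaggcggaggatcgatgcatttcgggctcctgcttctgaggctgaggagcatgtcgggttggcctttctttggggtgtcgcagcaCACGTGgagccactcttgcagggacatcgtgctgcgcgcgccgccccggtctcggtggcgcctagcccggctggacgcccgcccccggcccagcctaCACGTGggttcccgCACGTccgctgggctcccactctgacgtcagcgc
Pgk1: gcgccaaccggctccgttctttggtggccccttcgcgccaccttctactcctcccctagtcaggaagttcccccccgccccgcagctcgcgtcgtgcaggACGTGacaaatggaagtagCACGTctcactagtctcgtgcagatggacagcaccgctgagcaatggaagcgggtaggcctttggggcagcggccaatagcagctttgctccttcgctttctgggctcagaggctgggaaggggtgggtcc
ACGTG was in 12 of 32 windows of the glycolysis list (37.5%) and in 16.6% of all windows, a motif also chosen after the results were known.

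Of 25 genes of cholesterol synthesis and transport, 14 rose and none fell, and the median log2 change was 0.43. Each change was modest, and 0 of the 14 reached a log2 change of 1. Their summed level was 1742 to 1907 CPM at E12.5 and 2401 to 2561 CPM at E13.5, without overlap, and between 11 and 14 genes rose when any 1 library was left out. Hmgcs1, HMG-CoA synthase (chr13:119690379-119708260, plus strand), was at 202, 192 and 191 CPM at E12.5 against 297, 307 and 319 CPM at E13.5 (log2 change 0.66, SE 0.11, adjusted p 0.000194). Sqle, squalene epoxidase, and Msmo1, a sterol demethylase, had log2 changes of 0.81 and 0.83 (adjusted p 9.41e-05 and 1.3e-06). Fdft1 and Fdps, which make squalene and farnesyl pyrophosphate, had changes of 0.72 and 0.65. Abcg1, a sterol exporter, rose from 136, 82.1 and 76.2 CPM to 162, 215 and 206 CPM (log2 change 0.99, SE 0.24, adjusted p 0.00837). The window before the start of Hmgcs1 (chr13:119690101-119690350, plus strand) is shown because it carries both a sterol-response motif, TCACNCCAC, and CCAAT boxes, in capitals on either strand.
Hmgcs1: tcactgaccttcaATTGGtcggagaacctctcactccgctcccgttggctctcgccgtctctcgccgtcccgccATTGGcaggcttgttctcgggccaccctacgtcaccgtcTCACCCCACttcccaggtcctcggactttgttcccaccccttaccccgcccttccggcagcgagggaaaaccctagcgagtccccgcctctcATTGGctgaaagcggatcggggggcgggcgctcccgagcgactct
CCAAT was in 15 of 19 windows of this list (78.9%) and TCACNCCAC in 1 of 19, against 33.8% and 1.05% of all windows.

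**Figure D4:**
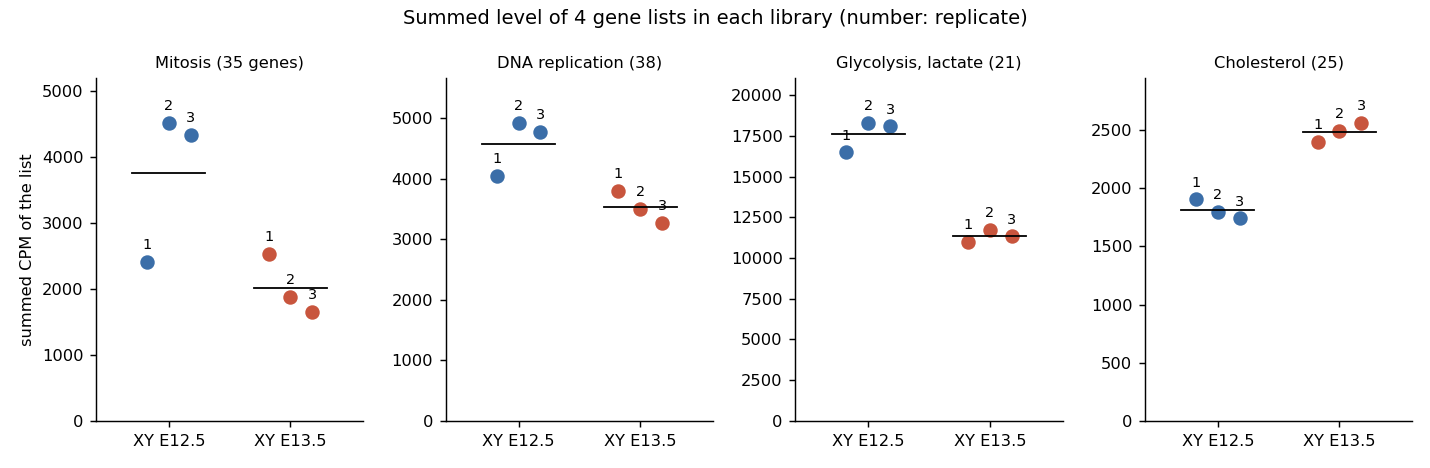
Summed CPM of the mitosis, DNA replication, glycolysis and cholesterol lists in each of the 6 libraries; numbers beside the points are replicate numbers and black lines are means of 3. For mitosis genes XY E12.5 replicate 1 (2410 CPM) lies among the E13.5 libraries, while the stages are apart for glycolysis and cholesterol genes.

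Several smaller families held genes in both directions. Of 23 serpins tested, 5 (21.7%) rose and 3 (13%) fell, against 8.02% and 8.62% of all genes tested. Serpini1, neuroserpin, fell from 53.5, 65.9 and 64.7 CPM to 31.1, 33.6 and 31.9 CPM (log2 change -0.93, SE 0.11, adjusted p 7.42e-06). Serpinh1, the collagen chaperone HSP47, had a log2 change of -0.47 (adjusted p 0.00403). The number that rose was 3 without XY E12.5 replicate 3 or XY E13.5 replicate 3. Of 23 interferon-response and antigen presentation genes, 2 rose (8.70%) and 2 fell (8.70%), close to the shares of all genes. B2m and H2-D1, the light and a heavy chain of MHC class I, rose by log2 changes of 0.73 and 1.33 (adjusted p 0.000107 and 0.000349). Ifitm1, given above, and Bst2 fell, and the call of Bst2 (adjusted p 0.0256) was lost when any 1 of the 6 libraries was left out. Among the SOX factors tested, Sox5 fell from 77.5, 79.4 and 73.3 CPM to 42.0, 40.5 and 36.8 CPM (log2 change -0.95, SE 0.12, adjusted p 2.18e-05). Kcnk2, the potassium channel TREK-1, fell from 39.1, 45.5 and 53.2 CPM to 10.9, 13.3 and 13.8 CPM (log2 change -1.86, SE 0.21, adjusted p 4.17e-06). Solute carriers were called near the share of all genes, with 27 of 263 higher (10.3%) and 27 lower (10.3%), and ribosomal protein genes below it, with 3 of 86 lower. The solute carriers called higher were 15 without XY E12.5 replicate 2, and those called lower 17 and 16 without XY E13.5 replicate 2 or 3. The ribosomal genes called lower were between 0 and 2 when any 1 library was left out.

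Markers of other cell types summed to far less than the 14357 to 19437 CPM of the 25 Sertoli genes. The 10 immune markers summed to 0.327 to 1.51 CPM at E12.5 and 0.387 to 1.08 CPM at E13.5, with Cd53, Laptm5, C1qa and C1qc at 0. The 9 endothelial markers summed to 18.2 to 19.1 CPM and 19.7 to 21.5 CPM, and none was at 0. Of them 2 (22.2%) were higher and none lower, against 8.02% and 8.62% of all genes tested. The 12 germ cell markers summed to 42.6 to 45.0 CPM at E12.5 and 24.5 to 31.0 CPM at E13.5. Of 11 tested, 2 (18.2%) were higher and 1 (9.09%) lower, and none was at 0. The 1 lower was Utf1, the most abundant of these markers, while 6 of the 11 had a log2 change above 0. The number higher was 0 or 1 when any 1 library was left out. The 8 fetal Leydig markers summed to 92.3 to 104 CPM and 93.3 to 97.0 CPM, with 2 (25%) lower, or 1 when any 1 library was left out. Ren1, the one that remained called, was at 21.6, 30 and 33.7 CPM and then 10.4, 7.33 and 8.04 CPM. The 10 erythroid markers summed to 21.3 to 37.6 CPM and 41.5 to 61.3 CPM. The 6 mesonephric and 6 surface epithelium markers summed to 27.8 to 32.2 and 16.7 to 18.4 CPM at E12.5 and to 32.5 to 34.1 and 22.5 to 23.6 CPM at E13.5. The part of these markers in the results was not tested.

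Set among the other stages of XY cells, several of the genes described above moved in 1 direction over the means, and others peaked or dipped. Serpina5 was at 0.121 ± 0.166 CPM at E11.5 and 376 ± 18.5 CPM at E15.5 (SD, n = 3), below and above both middle stages. Clu likewise went from 138 ± 35.4 to 7680.5 ± 280.2 CPM. Ifitm1 was at 730.2 ± 117 CPM at E11.5 and 3.21 ± 1.11 CPM at E15.5. Gfra1 had its highest mean at E12.5, with 11.52 ± 2.63 CPM at E11.5 and 1.59 ± 0.505 CPM at E15.5. Ccnb1 had its lowest mean at E13.5, with 203 ± 58.9 CPM at E11.5 and 253 ± 8.79 CPM at E15.5, and the E15.5 libraries for Top2a were at 509 ± 11.54 CPM. Ccnd1 was lower at each later stage, down to 12.3 ± 0.583 CPM. Steps next to each other share libraries, so these levels are given as a description with no test. Xist was at 0.272, 6.32 and 40.8 CPM in the 3 XY E11.5 libraries, against 108.8, 71.0 and 92.05 CPM in those of XX E11.5. The part of XX transcripts in the XY E11.5 levels was not tested. These XY E11.5 libraries are also in the 8 groups whose spread the p-values rest on.

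**Figure D5:**
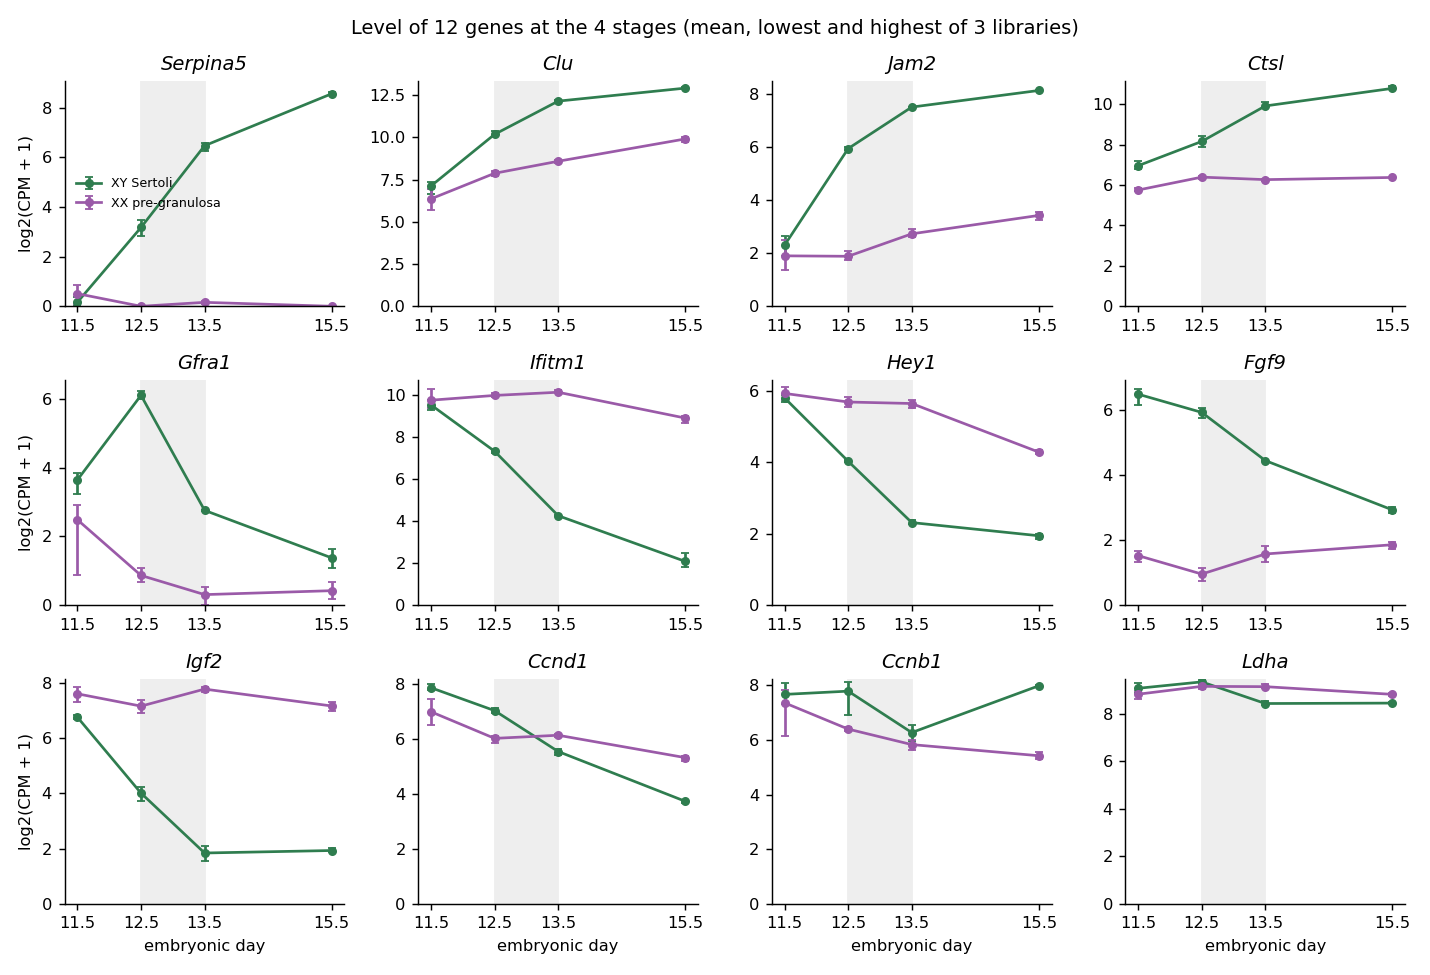
Level of 12 genes at the 4 stages from E11.5 to E15.5 in XY Sertoli cells (green) and XX pre-granulosa cells (purple), as log2(CPM + 1); points are means of 3 libraries, bars run from the lowest to the highest library, and the step examined is shaded. In XY cells Gfra1 is highest at E12.5 and Ccnb1 lowest at E13.5, while Serpina5, Clu, Jam2 and Ctsl are higher and Ifitm1, Fgf9 and Ccnd1 lower at each later stage. XY E11.5 replicates 2 and 3 held Xist at 6.32 and 40.8 CPM.

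The step in XY cells was then tested against the step between the same stages in XX pre-granulosa cells, which shares no library with it. The label of XX E13.5 replicate 1 is not uniform, since its title gives E13.5 and its stage field E12.5; it was placed by its title. The 2 steps differed for 4074 genes (25.2%), and 1474 of the 2694 genes called in the Sertoli step (54.7%) were among them. Without XX E13.5 replicate 1 the steps differed for 3756 genes. The difference contains the XY step itself, so this share is not independent of the first call. Sex, mouse line and reporter differ together between these cells and cannot be told apart. For Serpina5 the difference of steps was not called (adjusted p 0.628), with XX levels at or near 0, and for Gfra1 neither (adjusted p 0.24). Asns, asparagine synthetase, rose in XY cells from 114, 108 and 108 CPM to 180.1, 186 and 185 CPM (log2 change 0.74, SE 0.12, adjusted p 0.00014), while its mean in XX cells was 620.4 ± 59.0 CPM at E12.5 against 167 ± 9.15 CPM at E13.5. Igf2 fell in XY cells as given above, and in XX cells was at 143 ± 22.4 CPM and 219.6 ± 15.3 CPM. Hey1 had nearly the same level in XX cells at both stages, 50.9 ± 4.84 and 49.4 ± 4.17 CPM. Manf, a secreted factor of the endoplasmic reticulum stress response, fell from 325, 299 and 295 CPM to 182, 184 and 171 CPM in XY cells (log2 change -0.77, SE 0.09, adjusted p 6.57e-06) and was at 124 ± 3.93 and 226 ± 6.17 CPM in XX cells. Mmp11, a metalloproteinase, rose from 92.4, 115 and 125 CPM to 370, 283 and 313 CPM in XY cells (log2 change 1.54, SE 0.17, adjusted p 2.17e-06), against 72.0 ± 10.3 and 35.6 ± 4.74 CPM in XX cells.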

How the data were processed

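RNA was measured in 24 libraries, of which the 6 of XY cells at E12.5 and E13.5 are described, with 6 XX libraries for comparison. The authors deposited 1 table of estimated counts per gene, of which 17.5% of values were not whole, and 1 table of TPM. Reads were processed against mm10, per the submitters' processing notes. The aligner, the counting tool, the annotation and the use of strand are not given in the sources used here, so overlapping and near-identical genes may share reads. The library kit amplifies cDNA and no molecular identifiers are stated, so counts are not independent molecules and the limit of 3 counts covers counting error only.

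The deposited estimated counts were rounded and tested with edgeR 4.0.16 in R 4.3.3 (TMM scaling, filterByExpr, robust quasi-likelihood F test, 8 groups of 3 libraries, 16 residual degrees of freedom). The contrast was XY E13.5 minus XY E12.5, and a second contrast subtracted the XX step from it. P-values are two-sided, with Benjamini-Hochberg adjustment over 16190 genes, and every adjusted p in the text is from this fit unless another is named. Standard errors are the log2 change divided by the square root of F. Group means are given as mean ± SD over 3 libraries. The procedure was tested on simulated data. Alternatives used DESeq2 1.42.0 and limma 3.58.1 on log2(TPM + pseudocount).

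Named genes were, in 3 ranked sets, the 12 per direction with the largest change, the 6 per direction with the largest change of mean TPM, the 5 per direction with the smallest p for the difference from XX cells, and further the genes of 41 function lists, and Serpina5, Ifitm1 and Gfra1. Genes of the ranked sets were called in the step; the first set required both no overlap between stages and a mean of 10 CPM or more in the higher stage, the second no overlap, and the third the 10 CPM. Predicted models and Y-linked genes were left out, and ribosomal protein and mitochondrially encoded genes from the second set. The genes and lists were chosen with earlier results of these data known. Coordinates are from GENCODE M21 (GRCm38), to which 29546 of 32040 symbols matched. Promoter windows, 250 bases before each start, are from RefSeq on GRCm38.p6. Motifs were searched on both strands. The motif searches in the function lists and the motifs TTTGAA, TTTNNCGC, TCACNCCAC and ACGTG were added after the data were seen, and the name pattern of the mitochondrial list was changed to match the table. Some genes of the lists are counted but not reported here by name.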

Additional observations from a re-analysis of the deposited data

Results flagged for a closer look

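The change from E12.5 to E13.5 differed between XY and XX cells for 4074 genes by the test of the difference of steps. For the 10 genes singled out by the smallest p among those called in the Sertoli step, the values are the log2 change in XY cells minus that in XX cells, with edgeR's adjusted p. Asns stood 2.63 higher (SE 0.17, adjusted p 5.6e-09), rising in XY and falling in XX cells. Slc52a3, a riboflavin transporter, stood 3.82 higher (3.819). Mmp11 (2.552), Unc13b (2.355), a vesicle priming factor, and Ctsl (1.885) also stood higher in the XY step. Ifitm1 (-3.284) and Igf2 (-3.193) had the largest differences in the other direction. Pde9a, a cyclic GMP phosphodiesterase, differed by -2.358, Hey1 by -1.909 and Manf by -1.636. Each of these 10 differences kept its call when any 1 of the 12 libraries was left out.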

How the results depend on the processing

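The 2694 genes called became 4317 when only the libraries compared were fitted, 3258 with DESeq2, 2135 with no filter and 937 with a log2 change of at least 1. Leaving out 1 library gave 1503 to 2367 genes. Higher calls (1298) were 2214 with only the libraries compared, 2001 with the 12 XY libraries and 482 with a log2 change of at least 1, and 784 to 1197 with 1 library left out. Lower calls (1396) were 2103 with only the libraries compared, 455 with a log2 change of at least 1, 908 by limma on log2(TPM + 1) and 827 without its TPM filter, and 719 to 1237 with 1 library left out. The difference from XX cells (4074) was 1831 with a log2 change of at least 1 and 3179 to 3783 with 1 library left out. List genes called (249) were 155 by limma without a TPM filter, 110 with a log2 change of at least 1 and 149 to 237 with 1 library left out. The mean Spearman correlation within a stage (0.964) was 0.994 over the genes tested and 0.956 on log2(TPM + 1). The cause of these shifts was not tested. No called gene that was tested changed sign in any alternative run. Of 2947 values of single genes under alternatives, 2670 kept their side of the threshold, 255 lost a call and 22 gained one. Same-numbered libraries did not deviate together (correlations -0.08, -0.05 and -0.01 in XY cells), and a replicate block gave 2639 calls, 2539 of them shared with the 2694, and 4009 for the difference from XX cells. At a common biological coefficient of variation of 17.4% the smallest log2 change called was 0.19.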

Other observations

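The function lists that follow were not described above. Of 12 transcription factors of the early gonad tested, 0 rose and 1 (8.33%) fell, which was Nr5a1, near the 8.62% of all genes tested. Of 12 prostaglandin genes, 0 rose and 1 (8.33%) fell, Ptgis, the prostacyclin synthase. Among 14 hormone receptors 3 (21.4%) rose and 2 (14.3%) fell, against 8.02% and 8.62% of all genes tested. Those that rose were Amhr2, Fshr and Thra, a thyroid hormone receptor, and Thrb, the other thyroid hormone receptor, fell. Leaving out any 1 library but XY E12.5 replicate 1 left none of the 2 decreases called. Among 69 potassium channel genes 4 rose and 4 fell, 5.80% in each direction against 8.02% and 8.62% of all genes tested. Without XY E13.5 replicate 3, 1 rose. With XY E12.5 replicate 2 left out 2 rose. Cst12, a cystatin protease inhibitor, rose from 6.63, 3.32 and 3.88 CPM to 14.5, 16.8 and 16.3 CPM (log2 change 1.78, SE 0.41, adjusted p 0.0046).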
